A study of Mus musculus with 18 samples.

Results

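Untreated S33 mouse embryonic fibroblasts were compared with untreated embryonic fibroblasts of clone 45, gene by gene, on log2 array intensities. A gene was kept if the S33 array differed at least 2-fold, in the same direction, from each of the 2 clone 45 arrays. Of 19938 genes with 1 probe set each, 11689 passed a filter on dim genes, being above the array median (7.93 log2) in at least 1 of the 3 arrays, and 307 of these (2.63%) were kept. S33 was higher in 79 of them (0.676% of the genes tested) and lower in 228 (1.95%). The S33 line has 1 untreated array, so nothing here was tested, no p-value is given, and "higher" and "lower" describe these arrays. Against a single clone 45 array, with the filter over that array and S33, S33 was at least 2-fold higher in 200 genes and lower in 416 (array 1), or higher in 123 and lower in 370 (array 2). The 2 clone 45 arrays were at least 2-fold apart from each other in 389 genes (3.33%).

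The series holds 18 arrays of mouse pluripotent cells, reprogrammed colon tumour cells, intestinal organoids and embryonic fibroblasts, made to ask how mutant Apc, or mutant beta-catenin once switched on, acts in different cell types. S33 fibroblasts are labelled only as mouse embryonic fibroblasts, without doxycycline (dox) on the array compared here and with dox on a second array that is used below as a further measurement. Clone 45 fibroblasts derive from #45, itself a derivative of the first line of reprogrammed colon tumour cells (RTC#1), and have 2 arrays without 4-hydroxytamoxifen (4-OHT) and 2 after 2 days in 2 ug/ml 4-OHT. Both kinds of fibroblast were grown in DMEM with serum. What S33 stands for, the strain and embryonic age of either line, how fibroblasts were obtained from #45, and whether they still held host cells are not given in the sources used here, nor is whether the clone 45 arrays came from separate cultures. The lines therefore differ in origin as a whole, and genotype, strain, sex, embryo, dissection and culture cannot be told apart. In bulk samples fewer cells of a type and less RNA per cell cannot be told apart either.

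Embryonic fibroblast cultures are made from minced embryo bodies and hold connective tissue cells from many positions, often with some macrophages. Fibroblasts keep the Hox code of the place they came from, a set of clustered transcription factors whose expression follows position along the body axis. Interferons are secreted on viral or nucleic acid sensing and switch on a shared set of antiviral genes through the Stat and Irf transcription factors. Macrophages carry a surface and lysosomal gene set driven by the factor Spi1.

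Both lines expressed fibroblast markers, the 23 measured having a mean level of 12.51 log2 in S33 against 12.24 and 12.25 in clone 45. Of these, 0 were kept, where 2.63% of all genes tested were, which does not set so short a list apart. S33 lay above both clone 45 arrays for 15 of the markers and below both for 5 (9 and 8 on the values as deposited). Their median difference, S33 minus the mean of the clone 45 arrays, was 0.19 on the log2 scale (-0.03 on the values as deposited), against 0.00 over all genes tested. The type I collagen chain Col1a1 was at 13.63 log2 in S33, against 13.54 and 13.50 in clone 45. Thy1, a surface glycoprotein of fibroblasts, was at 13.30 in S33, against 13.30 and 13.05 in clone 45. The growth factor receptor Pdgfra was at 11.94 in S33, against 10.88 and 11.29 in clone 45, above both but past 2-fold against the first only. Apc was at 10.52 in S33, against 10.60 and 10.54 in clone 45, and its array signal does not show a point mutation. Beta-catenin (Ctnnb1) was at 12.96 in S33, against 12.80 and 12.87 in clone 45. Across the genes tested, the S33 array correlated with the clone 45 arrays at 0.922 and 0.934, and the clone 45 arrays with each other at 0.956. These are correlations across genes, which are not independent replicates.

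**Figure D1:**
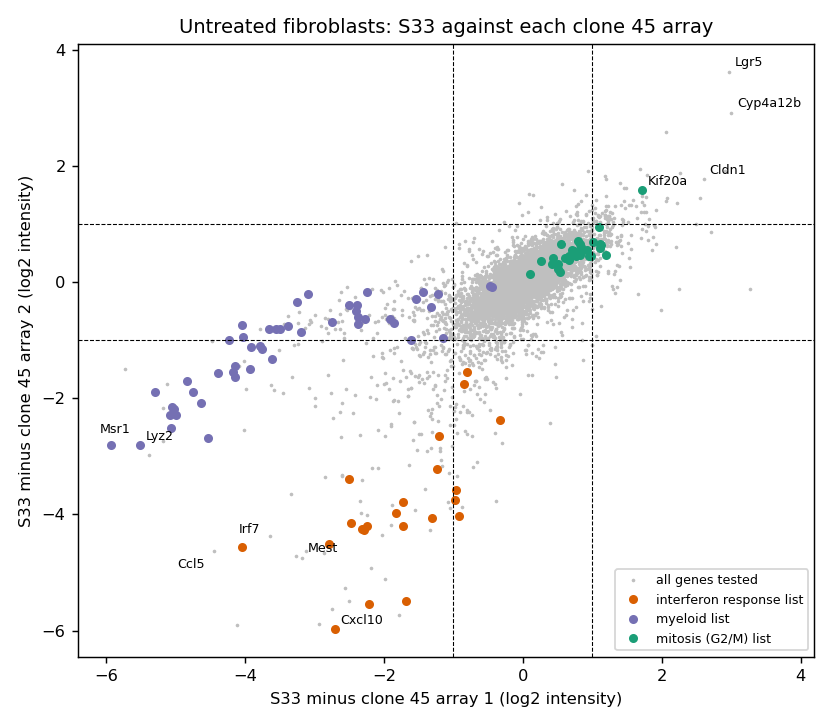
Difference of S33 from clone 45 array 1 (x axis) and array 2 (y axis) in log2 intensity, 1 point per gene tested, with dashed lines at 2-fold. Interferon response genes lie furthest from 0 against array 2 and myeloid genes furthest against array 1, and the mitosis genes lie above 0 against both.

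The genes higher in S33 were mostly moderate in size. The median of the smaller of the 2 differences was 1.19 log2, and 3 genes reached 4-fold. Lgr5, the receptor for R-spondins that marks intestinal stem cells, was the furthest apart, at 12.60 log2 in S33, against 9.63 and 8.98 in clone 45. Its value was at least 7.85-fold higher than in either clone 45 array, and the groups lay far apart. The other genes past 4-fold were Cyp4a12b, a fatty acid hydroxylase, at 9.71 in S33 against 6.71 and 6.79 in clone 45, and its near copy Cyp4a12a at 8.21 in S33 against 6.14 and 5.61 in clone 45. Signal shared between such near-identical copies cannot be told apart on this array. Next came the orphan receptor Gpr149, at 10.69 in S33 against 7.78 and 8.78 in clone 45. The secreted protein gene Crispld2 was at 10.59 in S33, against 8.79 and 8.75 in clone 45. The tight junction gene Cldn1 was at 10.99 in S33, against 8.38 and 9.21 in clone 45. These 3 were at least 2-fold above both arrays, with the clone 45 arrays about 1 log2 unit apart for Gpr149 and nearly equal for Crispld2. St8sia2, a polysialic acid transferase, was at 10.00 in S33 against 7.93 and 8.23 in clone 45. The receptor phosphatase Ptprz1 was at 9.91 in S33 against 8.18 and 8.35 in clone 45. In all, 16 of the 79 had both clone 45 arrays below the array median, so for these the clone 45 level was dim.

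A few Wnt pathway genes were among those higher in S33. Of 21 Wnt targets and antagonists tested, 3 were kept, all higher (14.3%, against 0.676% of all genes tested), while the list's median difference was 0.01, with 8 genes above both clone 45 arrays and 8 below both. Besides Lgr5 they were the ligand Wnt4, at 9.78 log2 in S33 against 8.38 and 8.45 in clone 45, and the matricellular gene Ccn4, at 12.39 in S33 against 11.38 and 11.28 in clone 45. On the values as deposited 2 of the 21 were kept higher and 1 lower (median -0.21, 6 above both and 13 below both). With each array centred on its median, or with the 6 fibroblast arrays normalized alone, 2 were kept higher and 0 lower. Axin2, the feedback gene most often read for Wnt activity, was at 8.60 in S33 against 8.55 and 8.63 in clone 45, within the range of the clone 45 arrays. On the S33 array with dox, Axin2 was at 11.27 and Lgr5 at 11.11. The R-spondins, secreted ligands that enhance Wnt signalling through the Lgr receptors, went both ways, and they and Dact1 were named outside the list after their values were seen. Rspo1 was at 9.72 in S33, against 8.01 and 8.23 in clone 45. Rspo2 was at 8.17 in S33, against 11.16 and 10.16 in clone 45, and Rspo3 was at 9.10 in S33 against 10.25 and 10.11 in clone 45. So Rspo1 was higher, and Rspo2 and Rspo3 lower, than in either clone 45 array. Dact1, a binding partner of Dishevelled, was at 10.70 in S33 against 9.45 and 9.50 in clone 45.

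Of 20 genes of the Notch pathway, a set chosen after its values were seen, 15 passed the filter. Of these, 4 were also kept higher (0.676% of all genes tested were). Notch receptors act on target genes of the Hey and Hes families through the DNA-binding factor Rbpj. The ligand Jag1 was at 11.40 log2 in S33, against 10.01 and 9.69 in clone 45. The target Hey1 was at 9.75 in S33, against 8.54 and 7.97 in clone 45, and Hey2 was at 8.62 in S33 against 7.44 and 6.80 in clone 45. Heyl was at 8.74 in S33, against 7.49 and 7.60 in clone 45. These 4 lay at least 2-fold above both clone 45 arrays, and no other gene of the set did. On the values as deposited 2 of the 20 were kept. Hes1 was at 10.94 in S33 against 10.14 and 9.58 in clone 45, above both but past 2-fold against the second only, and Rbpj was lower, at 11.11 in S33 against 11.54 and 11.88 in clone 45. Between S33 with dox and the 4-OHT arrays, 5 of the 20 were at least 2-fold higher (2.2% of all genes tested were). The Hey2 promoter holds the core letters read by Rbpj, GTGGGAA on either strand, at 2 places. These letters occur in 6.38% of all 32851 mouse promoters in RefSeq (GRCm38.p6, from 250 bases before to 50 after the gene start). Counted by gene, they occur in 7.07% of the 9373 genes tested that have a promoter there. Among genes kept higher they occur in 6 of the 49 with a promoter (12.2%). The Hey2 promoter, chr10:30842734-30843033, minus strand, is printed with the matches in capitals.
Hey2 promoter: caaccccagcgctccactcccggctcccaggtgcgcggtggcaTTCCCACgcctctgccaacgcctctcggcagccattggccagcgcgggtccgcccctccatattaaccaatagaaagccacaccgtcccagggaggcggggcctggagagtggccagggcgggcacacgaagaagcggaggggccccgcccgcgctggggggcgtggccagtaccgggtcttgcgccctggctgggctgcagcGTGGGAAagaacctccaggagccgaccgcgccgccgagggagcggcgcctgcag

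Genes lower in S33 were more numerous and further apart. Their median smaller difference was -1.50 log2, 54 were at least 4-fold and 8 at least 8-fold below both clone 45 arrays, and S33 itself was below the array median for 143 of the 228. For 104 of them the clone 45 arrays were at least 2-fold apart from each other, array 1 being the higher in 45 of them and array 2 in 59. Over all genes tested, array 1 was at least 2-fold above array 2 in 1.7% and array 2 above array 1 in 1.63%. By the smaller of its 2 differences, the gene furthest below was the chemokine Ccl5, at 8.50 log2 in S33, against 12.95 and 13.13 in clone 45, or at least 21.9-fold lower. Irf7, the transcription factor that amplifies the interferon response, was at 8.67 in S33, against 12.71 and 13.24 in clone 45. The clone 45 arrays lay close together for both genes, and S33 was far below. The antiviral regulator Trim30a was at 7.08 in S33 against 11.19 and 12.98 in clone 45, and lay further from the mean of the clone 45 arrays (32.1-fold) than Ccl5 did (23.3-fold). The GTPase gene Iigp1 was at 5.94 in S33 against 8.88 and 11.82 in clone 45. For Trim30a and Iigp1 the second clone 45 array was well above the first. Phf11d, Sp100 and Ifi203, all of gene families that respond to interferon, had smaller differences of -3.26, -3.12 and -2.86. Members of the Ifi200 and Trim30 families resemble one another, and signal shared between them cannot be told apart.

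The interferon list was lower as a whole. All 22 measured genes of 26 were below both clone 45 arrays, where 38.1% of all genes tested were. Of the 22, 16 were kept (72.7%, against 1.95% of all genes tested). The median difference from the mean of the clone 45 arrays was -2.93 log2, made of -1.72 against array 1 and -4.04 against array 2. Against array 1 alone 16 of the 22 were at least 2-fold lower, and against array 2 alone all 22. The summed intensity of the list was 10970 in S33, against 39088 and 133677 in clone 45. The clone 45 arrays thus differed from each other about as strongly as S33 differed from the first, and array 2 was above array 1 for every gene of the list. Usp18, a protease that removes the ubiquitin-like protein Isg15, was at 9.11 in S33 against 11.89 and 13.62 in clone 45. The chemokine Cxcl10 was at 7.75 in S33 against 10.46 and 13.72 in clone 45. Bst2, which tethers budding virus, was at 9.02 in S33 against 11.52 and 12.42 in clone 45. S33 was the lowest array for each. The RNA-binding antiviral gene Ifit1 was at 9.12 in S33 against 11.40 and 13.39 in clone 45, and the antiviral enzyme gene Rsad2 was at 6.96 in S33 against 9.17 and 12.51 in clone 45.

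Some genes of antigen presentation, chosen after their values were seen, were among those kept lower. Of 29 measured genes with an H2 symbol, the histocompatibility complex of the mouse, 8 passed the filter and 3 were kept, the non-classical class I genes H2-Q4, H2-Q5 and H2-T10. All 3 were kept lower, as were 1.95% of all genes tested. Over the 29, 19 lay below both clone 45 arrays and 3 above both, and the median difference was -0.27. H2-Q4 was at 7.95 log2 in S33, against 11.59 and 12.32 in clone 45. H2-T10 was at 7.08 in S33, against 9.93 and 10.43 in clone 45. S33 was near or below the array median for both, and clone 45 well above it. The immunoproteasome subunit Psmb8 was at 7.24 in S33 against 9.84 and 10.59 in clone 45. The peptide transporter subunit Tap1 was at 9.18 in S33 against 10.76 and 11.90 in clone 45. The class II loading gene H2-DMa lay between the clone 45 arrays, at 8.79 in S33 against 8.71 and 8.80 in clone 45. H2 genes differ between strains and resemble each other, and a difference in sequence under the probes cannot be told apart from a difference in level.

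Interferon-stimulated genes carry a promoter element, the interferon-stimulated response element, read here as GAAA, any 2 bases and GAAA again, on either strand, a motif picked after the values were seen. It occurred in 3.44% of all 32851 promoters and in 3.64% of the 9373 genes tested that have a promoter in RefSeq. Among genes kept lower it occurred in 28 of 154 with a promoter (18.2%), and among genes kept higher in 2 of 49 (4.08%). In the interferon list it occurred in 8 of the 11 kept genes with a promoter. Irf7 and Oasl2 had no match, which says only that these letters are not in this window. The promoters of Ifit1 (chr19:34640639-34640938, plus strand, 2 matches), Cxcl10 (chr5:92348840-92349139, minus strand, 1 match) and Rsad2 (chr12:26456403-26456702, minus strand, 1 match), from RefSeq on GRCm38.p6, show the element in capitals at its varying distance from the gene start. A match is a description of the sequence and not of binding.
Ifit1 promoter: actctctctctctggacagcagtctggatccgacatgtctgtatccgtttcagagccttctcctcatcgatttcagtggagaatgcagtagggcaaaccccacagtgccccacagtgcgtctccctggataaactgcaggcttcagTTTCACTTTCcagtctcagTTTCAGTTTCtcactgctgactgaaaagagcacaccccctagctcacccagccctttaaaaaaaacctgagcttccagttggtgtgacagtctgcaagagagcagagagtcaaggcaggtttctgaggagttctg
Cxcl10 promoter: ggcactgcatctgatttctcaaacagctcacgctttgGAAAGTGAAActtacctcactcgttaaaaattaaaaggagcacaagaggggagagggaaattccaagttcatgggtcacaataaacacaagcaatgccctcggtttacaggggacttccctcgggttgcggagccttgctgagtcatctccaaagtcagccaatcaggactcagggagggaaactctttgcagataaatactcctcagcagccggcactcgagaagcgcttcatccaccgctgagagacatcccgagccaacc
Rsad2 promoter: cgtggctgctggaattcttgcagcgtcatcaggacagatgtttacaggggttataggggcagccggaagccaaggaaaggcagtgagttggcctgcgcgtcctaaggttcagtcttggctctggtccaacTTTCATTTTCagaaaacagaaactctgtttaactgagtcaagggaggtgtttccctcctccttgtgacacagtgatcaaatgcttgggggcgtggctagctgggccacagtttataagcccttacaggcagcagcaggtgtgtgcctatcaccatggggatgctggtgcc

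Myeloid genes were lower too, with the clone 45 arrays in the opposite order. Of 52 measured markers, 49 passed the filter and 21 were kept (42.9%, against 1.95% of all genes tested). Each of the 21 had array 1 at least 2-fold above array 2. The S33 array was below the array median for 49 of the 52, against 3 in clone 45 array 1 and 29 in array 2. Most of the list therefore entered the comparison through clone 45, and its counts follow in part from the filter. Without the filter the median difference over the 52 was -2.17 log2. With it the median was -2.23, made of -3.61 against array 1 and -0.94 against array 2. Against array 1 alone 47 of the 49 were at least 2-fold lower, and against array 2 alone 21. The summed intensity of the list was 9585 in S33, against 86454 and 21056 in clone 45.

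Single markers showed the same order. Lyz2, the lysozyme of myeloid cells, was at 7.70 log2 in S33, against 13.20 and 10.50 in clone 45. The scavenger receptor Msr1 was at 5.59 in S33, against 11.52 and 8.41 in clone 45. The signalling adaptor Tyrobp was at 6.88 in S33, against 11.27 and 8.44 in clone 45. For each, clone 45 array 1 was the highest and S33 the lowest. The receptor Csf1r was at 6.76 in S33 against 10.51 and 7.90 in clone 45. The complement receptor C3ar1 was at 6.52 in S33 against 11.90 and 9.49 in clone 45. The pan-leukocyte phosphatase Ptprc was at 6.43 in S33 against 8.80 and 7.14 in clone 45, past 2-fold against the first array only and so not kept. Spi1, the factor named above, was at 6.61 in S33 against 10.52 and 7.73 in clone 45. The part of myeloid cells in the other genes kept lower was not tested. Lymphoid, mast cell, erythroid, endothelial, epithelial, skeletal muscle, neural and pluripotent marker lists had 0 kept genes each, though only 2 lymphoid, 1 mast cell and 0 erythroid markers passed the filter. With 2.63% of all genes tested kept, 0 in such short lists does not set them apart.

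**Figure D2:**
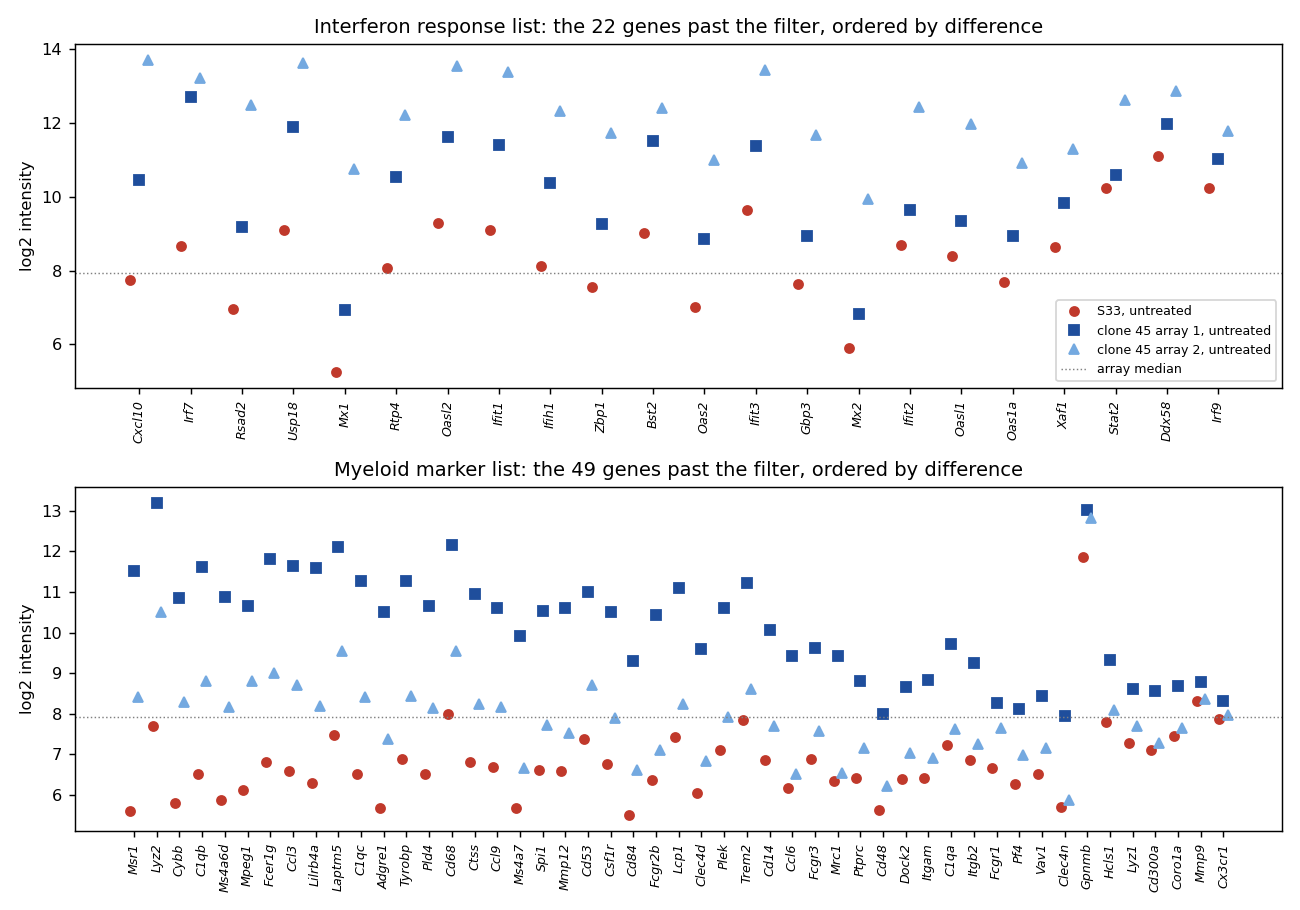
Log2 intensity of the interferon list (top, 22 genes) and the myeloid list (bottom, 49 genes) in S33 (red circles) and clone 45 arrays 1 and 2 (blue squares and triangles), with the array median dotted. S33 is the lowest array for every gene drawn, and the clone 45 arrays swap order between the panels.

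Hox genes were kept at a share near that of all genes tested. Of 39 Hox genes, 37 were measured and 31 tested, and 1 was kept (3.23%, against 2.63% of all genes tested in either direction). It was Hoxd10, at 8.84 log2 in S33, against 10.11 and 9.96 in clone 45, at least 2.17-fold lower. The list's median difference was -0.01, with 10 genes above both clone 45 arrays, 13 below both and 8 between them, beside 39% above and 38.1% below over all genes tested. The cluster medians were -0.38 for HoxA, -0.06 for HoxB, 0.26 for HoxC and -0.09 for HoxD. The highest Hox gene, Hoxc8, was at 12.58 in S33, against 11.54 and 11.96 in clone 45. The posterior gene Hoxd13 was at 10.30 in S33, between 11.08 and 9.72 in clone 45. Hoxa5 was at 9.01 in S33, against 9.79 and 10.37 in clone 45. Hoxc8 was thus above, Hoxa5 below and Hoxd13 between the clone 45 arrays, and each was within 2-fold of at least 1 of them.

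**Figure D3:**
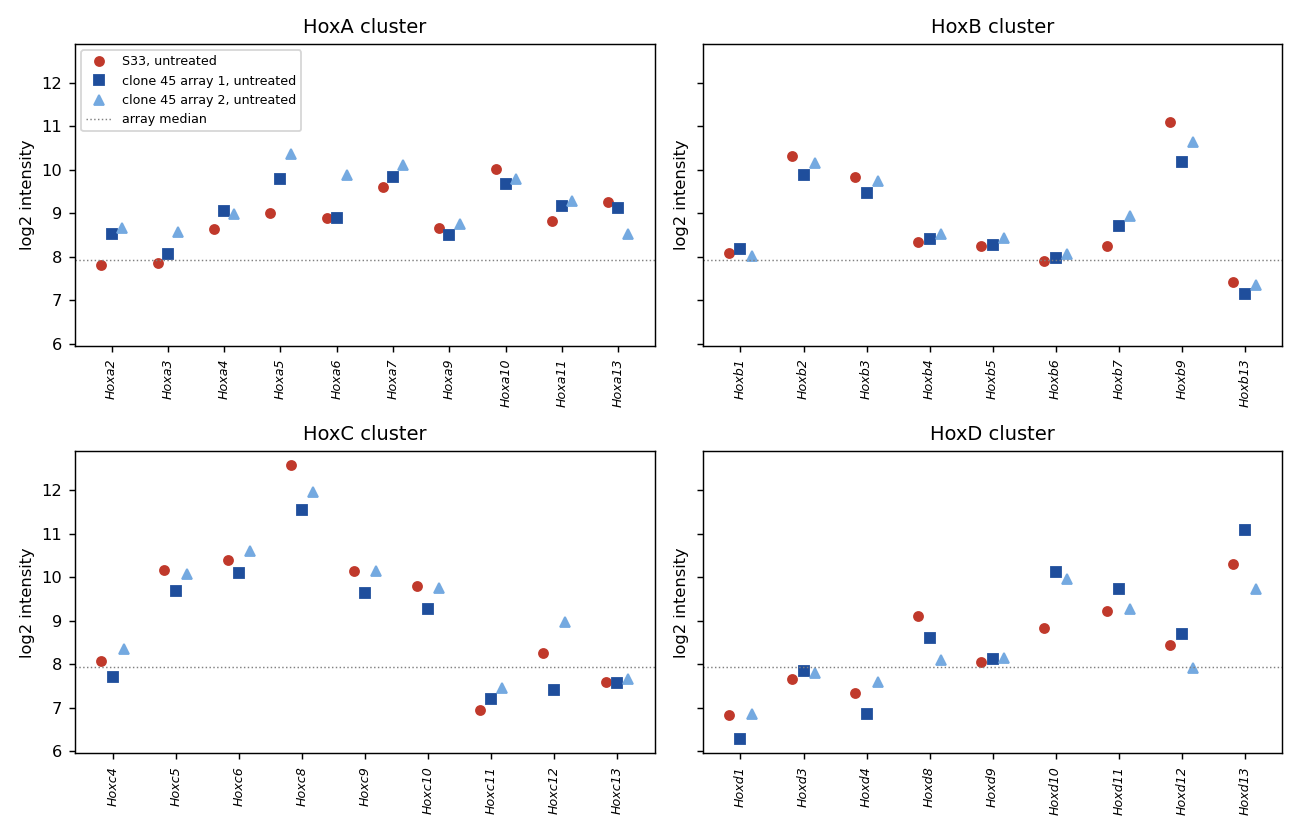
Log2 intensity of the measured Hox genes of each cluster in S33 (red circles) and clone 45 arrays 1 and 2 (blue squares and triangles), in order of paralogue number, with the array median dotted. The 3 arrays run close together for most genes, and Hoxd10 is the 1 gene with S33 at least 2-fold from both.

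Among other regional genes, a few were kept. Emx2, a homeobox gene of the limb girdle and urogenital tract, was at 10.13 log2 in S33, against 8.94 and 8.90 in clone 45. It was the 1 gene kept of 21 limb genes (4.76%, against 0.676% of all genes tested kept higher). Of 23 trunk and visceral genes, 4 were kept lower (17.4%, against 1.95% of all genes tested) and 0 higher (median -0.25). Foxf1, a factor of visceral mesenchyme, was at 9.05 in S33 against 10.18 and 10.65 in clone 45. The zinc finger factor Zic2 was at 7.66 in S33 against 9.43 and 9.37 in clone 45. The somite factors Meox1 and Meox2 were at 6.99 and 8.19 in S33, against 8.35 and 9.63 in clone 45 array 1 and 9.19 and 9.44 in array 2. In these 4 genes S33 lay below both clone 45 arrays and the clone 45 arrays were within 2-fold of each other. The forelimb gene Tbx5 was at 10.10 in S33 against 10.45 and 10.17 in clone 45, and the hindlimb gene Tbx4 at 9.72 in S33 against 10.20 and 10.15 in clone 45. Neither was kept, and 0 of 11 head and neural crest genes were.

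Mitosis genes were slightly higher in S33. All 31 tested were above both clone 45 arrays, where 39% of all genes tested were (28 of 31 on the values as deposited). Yet 1 was kept (3.23%, against 0.676% of all genes tested). The median difference was 0.64 log2, made of 0.77 against array 1 and 0.47 against array 2. The summed intensity of the list was 48994 in S33, against 29207 and 34009 in clone 45. The kept gene was Kif20a, a kinesin of cell division, at 11.14 in S33, against 9.42 and 9.56 in clone 45. The proliferation marker Mki67 was at 11.50 in S33, against 10.41 and 10.56 in clone 45, just under the threshold against the second array. Both were higher than in either clone 45 array. DNA replication genes, in contrast, had a median difference of 0.01, with 8 of 29 above both, 10 below both and 0 kept.

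Other growth and stress lists are set beside the 2.63% of all genes tested that were kept. At that share, 0 kept in such a short list does not set it apart. The list of D cyclins, Cdk inhibitors and Myc (17 genes, median 0.03), the p53 targets (22 genes, median -0.02), the immediate early genes (24 genes, median -0.06) and the YAP and contractile genes (18 genes, median 0.05) had 0 kept each. The senescence regulator Cdkn2a was at 9.56 in S33, against 9.20 and 8.85 in clone 45. Sterol synthesis genes were above both clone 45 arrays in 17 of 17 (12 of 17 on the values as deposited), by a median of 0.37, with 0 kept. Of 21 genes of the senescence-associated secretion, 3 were kept lower (14.3%, against 1.95% of all genes tested). The stromelysin Mmp3 was at 8.04 in S33, against 10.15 and 10.05 in clone 45. The chemokine Cxcl1 was at 8.46 in S33 against 9.85 and 9.50 in clone 45, and the growth factor Ereg was at 8.75 in S33 against 10.30 and 9.80 in clone 45. S33 was the lowest array for the 3 genes, and the list's median difference was -0.51.

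**Figure D4:**
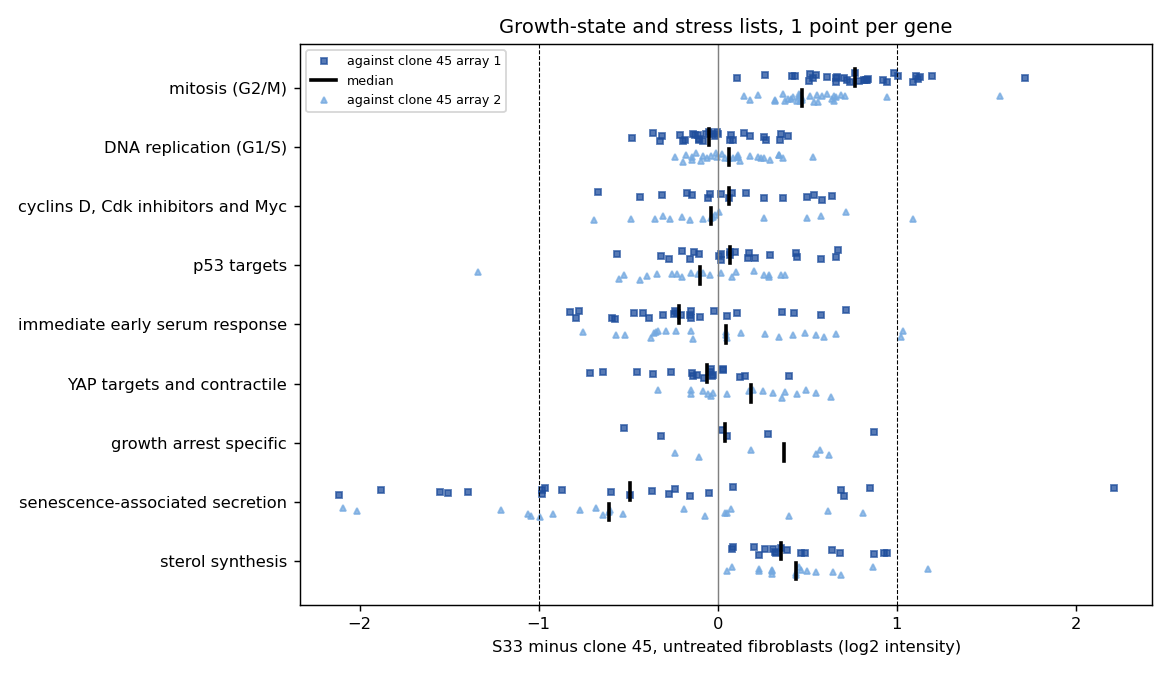
Difference of S33 from clone 45 array 1 (squares) and array 2 (triangles) in log2 intensity for 9 growth-state and stress lists, 1 point per gene, black bars at the medians, dashed lines at 2-fold. All mitosis and sterol genes lie above 0 against both arrays, and the secretion list has the lowest medians.

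Most collagen and matrix genes were not kept, like most genes tested (2.63% were kept). Of 24 collagen chains tested, 0 were kept, 17 were above both clone 45 arrays and 3 below both, and the median difference was 0.31 log2 (0.06, with 11 above both, on the values as deposited). Of 36 matrix proteins and proteases, 3 were kept lower (8.33%, against 1.95% of all genes tested) and 1 higher (2.78%, against 0.676%). The median was 0.02. The mineralisation inhibitor Mgp was at 10.91 in S33 against 12.78 and 12.57 in clone 45, and the matrix proteoglycan Prelp at 10.81 in S33 against 12.85 and 12.10 in clone 45. With Mmp3, given above, these were the 3 lower. Fbn2, a fibrillin of embryonic microfibrils, was the 1 higher, at 12.58 in S33 against 10.84 and 11.38 in clone 45.

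Of 7 adipocyte genes tested, 4 were kept lower (57.1%, against 1.95% of all genes tested), with a median of -1.38 log2 over the list. Of the 11 measured, 8 were below the array median in S33, against 4 and 5 in clone 45 arrays 1 and 2. The share kept thus follows in part from the filter. The adipogenic factor Pparg was at 8.34 in S33, against 9.82 and 9.62 in clone 45. The lipid carrier Fabp4 was at 6.50 in S33 against 9.04 and 8.33 in clone 45. Cd36, a fatty acid and scavenger receptor that macrophages also carry, was at 5.50 in S33 against 10.62 and 7.24 in clone 45. Pparg had nearly equal clone 45 arrays, whereas Cd36 followed the order of the myeloid list. Ebf2, a factor of adipocyte precursors, was at 7.12 in S33 against 8.17 and 9.26 in clone 45. Of 28 genes of the BMP and TGF-beta list, 2 were kept, both lower (7.14%, against 1.95% of all genes tested). Gdf10, a ligand of the BMP family, was at 8.08 in S33 against 9.70 and 9.91 in clone 45. Ltbp2, a latent TGF-beta binding protein, was at 10.96 in S33 against 12.81 and 12.19 in clone 45. The pericyte gene Rgs5, 1 of 14 tested on its list to be kept (7.14%), was at 7.11 in S33 against 8.42 and 9.30 in clone 45. The hypoxia-induced peptide gene Adm, 1 of 18 on its list (5.56%), was at 10.07 in S33 against 11.61 and 11.19 in clone 45. Outside the lists, the potassium channel Kcnma1 was at 6.56 in S33 against 9.91 and 10.22 in clone 45, at least 10.1-fold lower. The growth factors Fgf7 and Fgf10 had smaller differences of -1.38 and -1.32, and the opioid precursor Penk one of -1.63.

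The sex-linked genes differed between the lines. Xist, the RNA that silences an X chromosome in females, was at 5.96 log2 in S33, against 8.57 and 8.62 in clone 45. The Y-linked Kdm5d was at 6.38 in S33, against 8.83 and 8.64 in clone 45. The Y-linked Eif2s3y was at 7.50 in S33, against 9.39 and 9.95 in clone 45, and for Uty the smaller difference was -1.04. Female and male markers were thus both higher in clone 45, and 4 of the 6 measured were kept (66.7%, against 1.95% of all genes tested kept lower). S33 was below the array median for 3 of the 6, against 0 in either clone 45 array. Those 3 passed the filter through clone 45 only, so the share follows in part from the filter.

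Imprinted genes went both ways, and 1 of them stood far apart. Mest, expressed from the paternal copy in embryonic mesoderm, was at 8.37 log2 in S33, against 11.55 and 13.12 in clone 45. It was the 1 gene kept of 21 imprinted genes tested (4.76%, against 1.95% of all genes tested kept lower). The paternally expressed Dlk1, a Notch-like surface protein, was at 12.30 in S33, against 13.16 and 13.41 in clone 45, below both but under 2-fold against the first. The maternally expressed RNA of the same region, Meg3, was at 10.45 in S33, against 8.56 and 9.46 in clone 45, just under 2-fold from the second. Dlk1 and Meg3, neighbours read from opposite parental copies, thus lay on opposite sides of clone 45. The paternally expressed Dio3 and Rtl1, both under the filter, went different ways: Dio3 was at 6.66 in S33 against 6.99 and 7.20 in clone 45, and Rtl1 at 7.56 in S33 against 7.10 and 7.50 in clone 45.

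The transcripts between Dlk1 and Dio3 on chromosome 12, a set chosen after its values were seen, include a large cluster of maternally expressed microRNAs. Of 45 maternal transcripts measured, 41 were above both clone 45 arrays and 1 below both, with a median difference of 0.40 log2, although only 13 passed the filter. Of these, 4 were kept higher (0.676% of all genes tested were): Mir382, Mir377, Mir485 and the small nucleolar RNA DQ267102. Of the 40 microRNA genes in the region 36 were above both arrays, against 111 of the other 251 microRNA genes, whose median was 0.03. Mir382 was at 8.35 in S33 against 6.09 and 6.46 in clone 45. Mir377 was at 8.11 in S33 against 6.03 and 6.65 in clone 45, and Mir485 at 8.06 in S33 against 6.88 and 6.95 in clone 45. All 3 crossed the array median only in S33. DQ267102 was bright in every array, at 12.09 in S33 against 10.41 and 10.14 in clone 45. The mature forms of the 3 kept genes, in RefSeq on GRCm38.p6 (plus strand, from chr12:109733781-109733802 for miR-382-5p to chr12:109740553-109740574 for miR-377-3p), are printed with the seed, bases 2 to 8, in capitals. No seed was shared among them. Whether the array signal at these genes came from mature forms or from longer transcripts was not tested.

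miR-382-3p: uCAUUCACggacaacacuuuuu
miR-382-5p: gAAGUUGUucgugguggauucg
miR-485-3p: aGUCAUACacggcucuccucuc
miR-377-3p: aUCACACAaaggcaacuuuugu
miR-377-5p: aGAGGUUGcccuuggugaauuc

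The difference in the region was also present in arrays that did not choose it. Between S33 with dox and the 4-OHT arrays 39 of the 45 maternal transcripts were above both (42.2% of all genes tested were), with a median of 0.37. Only 13 of the 45 had passed the filter, so the other microRNA genes are the closer set. Of the 40 microRNA genes in the region 35 were above both, against 139 of the other 251. Between S33 embryonic stem cells (ESCs) and derivative #45, 42 of the 45 were higher (50.9% of all genes tested were), with a median of 0.50. There 37 of the 40 microRNA genes were higher, against 129 of the other 251. Meg3 was at 10.36 in S33 with dox against 8.63 and 9.25 with 4-OHT, and at 10.50 in S33 ESCs against 9.24 in #45. DQ267102 was at 12.29 in S33 ESCs against 9.10 in #45, but at 10.44 in S33 with dox against 10.18 and 10.11 with 4-OHT. It was therefore near clone 45 after dox.

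**Figure D5:**
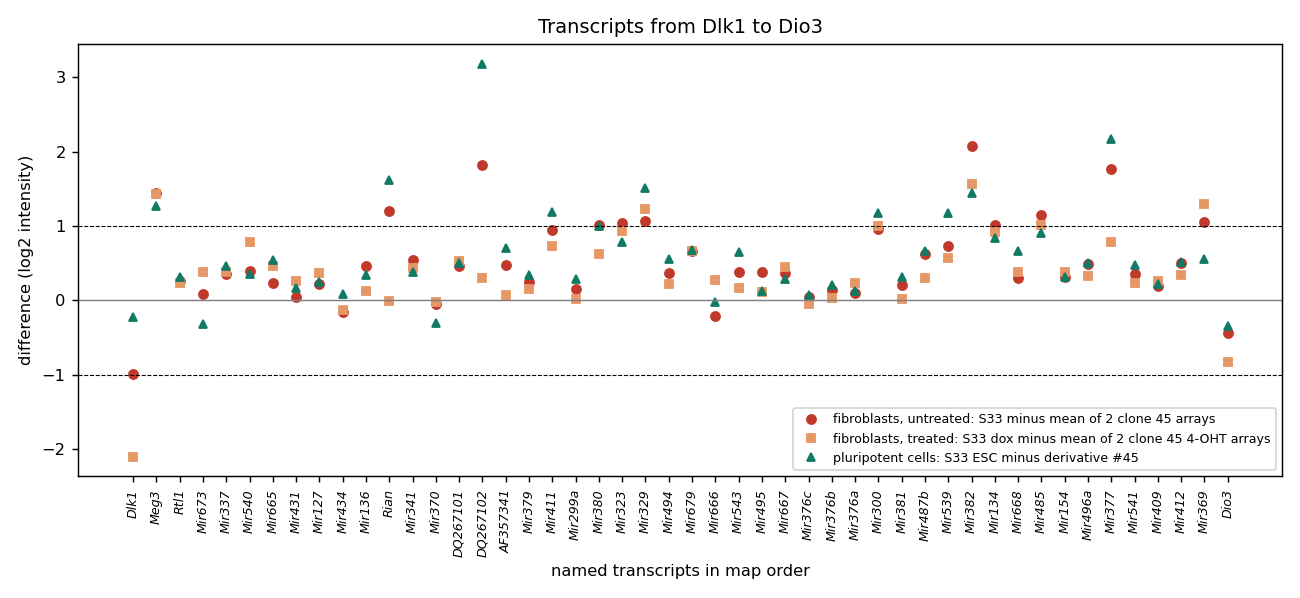
Difference of S33 from clone 45 in log2 intensity for the named transcripts from Dlk1 to Dio3, in map order, in untreated fibroblasts (circles), treated fibroblasts (squares) and pluripotent cells (triangles), with dashed lines at 2-fold. Most transcripts lie above 0 in all 3 comparisons, among them the paternally expressed Rtl1, and the paternally expressed Dlk1 and Dio3 lie below it.

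Treated fibroblasts and pluripotent cells gave measurements on arrays that the rule had not used. S33 with dox and the 2 clone 45 arrays with 4-OHT differ in agent as well as in line, and the dox and untreated S33 arrays may share a culture. The clone 45 arrays with and without 4-OHT may share cultures too, being paired by title. In the second pair 19.2% of the deposited values were identical. The treated comparison may thus not be separate from the untreated one on either side. Of the 228 genes lower in S33, 176 (77.2%) were at least 2-fold lower there too (3.53% of all genes tested were). By any amount, 215 lay below both arrays (40.6% of all genes tested did), and 3 were at least 2-fold higher. Of the 79 genes higher in S33, 30 (38.0%) were at least 2-fold higher (2.2% of all genes tested were). By any amount, 60 lay above both (42.2% of all genes tested did), and 4 were at least 2-fold lower. For 27 of the 79 the S33 value with dox was at least 2-fold below that without it (3.73% of all genes tested were). Kif20a was at 9.37 in S33 with dox, against 9.22 and 9.66 with 4-OHT, so it did not stand apart there. The mitosis list as a whole had a median of -0.87, and the sterol list -1.68, in the treated arrays. The signs of both lists were thus opposite to those in untreated cells.

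The interferon and myeloid lists were low in treated S33 fibroblasts too. All 22 interferon genes were at least 2-fold below both 4-OHT arrays, with a median of -3.46 log2. The summed intensity of the interferon list was 6808 in S33 with dox, against 54150 and 118396 with 4-OHT. The summed intensity of the myeloid list was 12072 in S33 with dox, against 82665 and 21615 with 4-OHT. The order of the clone 45 arrays was the same as without 4-OHT for both lists. Hoxd10 was at 9.52 in S33 with dox, against 10.05 and 9.92 with 4-OHT, less than 2-fold apart. Emx2 was at 10.10 in S33 with dox, against 8.91 and 9.01 with 4-OHT, as in untreated cells.

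In pluripotent cells, each line having 1 array, 52 of the genes lower in S33 fibroblasts (22.8%) were at least 2-fold lower in S33 ESCs than in derivative #45 (3.29% of all genes tested were) and 4 at least 2-fold higher. Of the genes higher in S33 fibroblasts, 14 (17.7%) were at least 2-fold higher (2.39% of all genes tested were) and 0 lower. In both the treated and the pluripotent comparison 41 of the genes lower and 3 of the genes higher were at least 2-fold apart the same way, the 3 being Lrrc15, Mir382 and St8sia2. The share of all genes tested that did so in both is not given, so these counts cannot be set against it. Mest was at 7.52 in S33 ESCs against 11.23 in #45, and at 6.26 in S33 with dox against 10.29 and 11.77 with 4-OHT. Xist was at 6.50 in S33 ESCs against 7.69 in #45, and Kdm5d at 6.30 in S33 ESCs against 7.35 in #45. Lyz2 was at 9.22 in S33 ESCs against 11.23 in #45, a pluripotent line. The myeloid list had a median of -0.49 between the pluripotent arrays, with 13 of 49 genes at least 2-fold lower and 1 higher. The interferon list had a median of -0.22 between the pluripotent arrays, with 1 gene at least 2-fold lower and 2 higher, so the large difference of the fibroblasts was not there. The list was dim in both, with 14 of 22 genes below the array median in S33 ESCs and 11 in #45. That leaves little room for a lower level in S33 to show.

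The 307 genes kept were a matter of degree at the threshold. Just inside on the high side were Rab27a (1.00), Ccn4 (1.01) and Stmn1 (1.01), and just outside Crmp1 (0.998) and Frem1 (0.996). On the low side Rspo3 (-1.005) and Stap1 (-1.01) were just inside, and Znfx1 (-0.994) and the Fc receptor Fcgr1 (-0.992) just outside. Of the genes kept, 6 higher and 60 lower belonged to at least 1 of the 39 lists, and 73 higher and 168 lower belonged to none. The split between higher and lower depended on the scale of the arrays: on the values as deposited 9.2% of the genes kept were higher, against 25.73% after joint quantile normalization. The median of all genes was -0.23 log2 as deposited.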

How the data were processed

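Single-colour Affymetrix Mouse Gene 1.0 ST type arrays measured RNA purified on columns and tagged with biotin (per the labels' protocols). The values deposited by the authors are linear intensities, 1 for each of 28856 probe sets and 18 arrays. For background correction, probe summarisation and array scaling, methods were not given in the sources used here. Medians of the 8 arrays used here were 212.1 to 273.0 in deposited intensity. Of the deposited values, 19.2% were identical between the second untreated and the second 4-OHT clone 45 array, and at most 0.104% between any other of these 8 arrays. Arrays may thus have been scaled in separate sets, and all 18 were quantile normalized together as log2 values.

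Probe sets without values (3) were left out, and those with several symbols (1621) or none (5443) were not named. The platform annotation gave 1 symbol to 21789, of which 21698 matched RefSeq GRCm38.p6 by gene identifier. A gene with several probe sets was read from the brightest one, by its mean across the 18 arrays. Genes above percentile 50 in at least 1 of the 3 arrays entered. "Smaller difference" is the smaller of the 2 differences of S33 from clone 45 where they share a sign, and 0 otherwise. A list's difference is from the mean of both clone 45 arrays. The number of arrays limits the precision. With 1 S33 array no test was run.

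The members and the 39 lists (749 names, 696 measured) were chosen with earlier results of these data known. Genes named by rule were the 12 furthest each way, each Hox gene kept, up to 4 kept members per list and 13 fixed genes, 68 in all. Cdkn1a was not measured under a single symbol. Further genes were named after their values were seen. Other scalings, filters, probe set rules, thresholds and single clone 45 arrays were alternatives. The counting was tested on simulated data. Python 3.11.15, pandas 2.3.3, numpy 2.4.6 and matplotlib 3.10.9 were used.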

Additional observations from a re-analysis of the deposited data

Results flagged for a closer look

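Several kept genes went the opposite way, by at least 2-fold, in another pair of S33 and clone 45 samples. In each case this difference between contrasts was not tested, and the contrasts differ in agent or cell type as well. Among genes higher in untreated S33 fibroblasts, S33 with dox was below both 4-OHT arrays for Cldn1 (smaller difference -1.44 log2), the secreted protein gene Egfl6 (-1.24), the interleukin receptor gene Il1rl2 (-1.08) and the lipid transfer gene Stard4 (-1.21). Cldn1 was at 6.87 in S33 with dox, against 8.31 and 9.43 with 4-OHT, and at 10.99 in untreated S33. Among genes lower in untreated S33, S33 with dox was above both 4-OHT arrays for the water channel Aqp1 (1.16), the costimulatory receptor Cd28 (1.16) and the secreted Ism1 (1.94). Ism1 was at 10.44 in S33 with dox, against 8.50 and 8.12 with 4-OHT, and at 7.50 in untreated S33. In pluripotent cells S33 was above derivative #45 for Cd274 (1.15), Cxcl10 (1.17), Dtx3l (1.24) and Oasl2 (1.23), all of them genes that respond to interferon and all lower in untreated S33 fibroblasts. Among the 7064 probe sets without a single gene name, of which 2489 passed the filter, S33 was at least 2-fold above both clone 45 arrays in 48 and below both in 59. These were not used in any comparison.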

How the results depend on the processing

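Of the 68 genes named by rule, each under the 4 settings that can move a single gene beyond the spread between the clone 45 arrays (3 scalings and another probe set rule), 236 of 272 values moved by less than that spread and 36 by more, 26 of these on the values as deposited. Of the kept genes among them, 0 changed sign under these settings. The difference of 4 others did on the values as deposited, to -0.08 for Ctnnb1, -0.21 for Axin2, -0.10 for Thy1 and -0.12 for Col1a1, and Axin2 also was -0.05 with each array centred on its median and -0.03 without clone 45 array 1. As deposited, 32 genes were kept higher and 316 lower, and the medians were -0.21 for Hox, 0.38 for mitosis and -0.19 for DNA replication genes. With the filter at percentile 75, which tests fewer genes, 46 were higher and 144 lower, and the Hox median was 0.26. With a threshold of 1.5-fold 337 were higher and 521 lower, and at 4-fold 3 and 54. With 1 clone 45 array left out, 123 to 200 were higher and 370 to 416 lower. The Hox median then was -0.10 to -0.037, the myeloid median -3.61 to -1.64 (over the genes passing that filter) and the interferon median -4.04 to -1.78. The share of genes with the same difference in treated arrays was 24.5% to 32.5% of those higher and 43.3% to 59.2% of those lower. Beyond these settings, the cause was not tested. The interferon alternatives were added after seeing the data. Centring each array on its median, quantile normalization of the 6 fibroblast arrays, no filter and the median of a gene's probe sets left the counts within 1.5 times. No paired analysis was possible because the S33 group has 1 untreated array. A single S33 array leaves its own spread unmeasured.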
